A study of Mus musculus with 12 samples.

Results

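The genes described here encode the proteins of the mitochondrial ribosome, and they were taken as every gene symbol of the form Mrps or Mrpl with a number and at most a letter from a to d. Of 52535 gene entries, 78 had such a symbol, and 77 of them reached 10 or more counts summed over 6 libraries. All 77 passed the filter on low counts and were among 14946 genes tested. Mrpl53, the 78th, had 0 counts in every library, and 88% of its annotated exon bases also lie in exons of other genes, so no level or fold change is given for it. The part of this overlap in the count of 0 was not tested. The least counted gene inside the limit was Mrps23, with 339 counts in all.

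The study compared E14 mouse embryonic stem cells that carry a knockout of Bcat1, the cytosolic enzyme that transaminates branched-chain amino acids, with wild-type (WT) E14 cells. There were 2 libraries of knockout clone 1, 2 of knockout clone 2 and 2 of WT, all from cells kept in serum medium with LIF and the inhibitor mix 2i. A further set of 6 time course samples is not analysed here. Each clone is a single line, so the 4 libraries labelled knockout come from 2 clones and are not 4 independent replicates, and the labels do not say that the libraries of a group came from separate cultures. The spread within a group may thus be technical, and the p-values of the clone contrasts rest on that spread alone. In the comparison of all libraries labelled knockout with WT, the difference between the 2 clones also enters the spread.

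Mitochondria keep a small genome of their own, whose messenger RNAs code for membrane subunits of the respiratory chain and the ATP synthase. These are translated by a dedicated ribosome with 2 RNAs made from mitochondrial DNA and a large set of proteins made from nuclear genes in the cytosol and imported. Some of these proteins descend from bacterial ribosomal proteins, and others were added during the evolution of mitochondria. Loss of single members is known to cause human disorders of oxidative phosphorylation.

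Bcat1 RNA stood at 617 and 662 CPM (counts scaled to library size by TMM) in clone 1 and at 583 and 579 CPM in clone 2, against 602 and 614 CPM in WT. The genotype difference was 0.01 ± 0.08 on the log2 scale (SE, adjusted p = 0.977 by edgeR's quasi-likelihood test), so the RNA level does not check the label, and the phrase libraries labelled knockout is used below for that reason. Gene counts per library ran from 11976149 to 12864573 in the libraries labelled knockout and from 13294805 to 13923262 in WT. All 8 embryonic stem cell markers were detected in every group, with summed levels of 5777 to 5901 CPM in clone 1, 6203 to 6204 CPM in clone 2 and 6390 to 6577 CPM in WT. The 8 fibroblast markers summed to 32.1 to 33.5 CPM in clone 1, 20.7 to 21 CPM in clone 2 and 23.7 to 23.9 CPM in WT, with Lum, Dcn and Postn at 0 throughout. The 8 markers of differentiated lineages summed to 75.6 to 83.5 CPM in clone 1, 50.9 to 54.6 CPM in clone 2 and 86.4 to 93.7 CPM in WT. Of the 8 tested embryonic stem cell markers 3 were called lower in clone 1 and 1 in clone 2. Of 4 tested fibroblast markers 2 and 1 were called higher. Of 6 tested lineage markers 2 were called higher and 1 lower in clone 1 and 3 lower in clone 2. Over all genes tested, 9.53% and 7.81% were called lower and 12.4% and 10.1% higher in clones 1 and 2. Sox2 was the stem cell marker called in both clones, at 497 and 590 CPM in clone 1 and 563 and 556 CPM in clone 2, against 663 and 694 CPM in WT, and both calls were lost without either WT library (adjusted p of 0.059 to 0.204), and that in clone 2 also without either clone 2 library (0.159 and 0.185). Klf4 (log2 -0.41 ± 0.09, adjusted p = 0.00499) and Dppa5a (-0.23 ± 0.07, 0.0206) were also called lower in clone 1. In clone 2 they lay at -0.03 and -0.18, not called. The Klf4 call was lost without WT replicate 2. That of Dppa5a was lost without any one WT or clone 2 library and in a fit of only the 4 libraries compared. Klf4 was higher in clone 2 than in clone 1 (0.37 ± 0.09, 0.0129), a call lost without either clone 2 library. Nanog lay at 0.18 and 0.09 in clones 1 and 2, not called. The fibroblast gene Col1a2 had 22 and 15 counts in clone 1 and 11 and 18 in clone 2, against 0 and 1 in WT. Cdx2, a transcription factor of the trophoblast, had 2.3 and 1.46 CPM in clone 1 and 6.33 and 3.48 CPM in clone 2, against 28.9 and 22.3 CPM in WT. The lineage markers called higher in clone 1 were Eomes (log2 fold change 0.92 ± 0.17, adjusted p = 0.000814) and Gata4 (1.43 ± 0.4, 0.0159). In clone 2, T (-1.02) and Nes (-0.55) were called lower with Cdx2. The fibroblast marker Thy1 was called higher in clone 1 (0.94, adjusted p = 0.0311) and lay at -0.94 in clone 2 (0.0769). DESeq2 did not call Gata4 (0.0541) or Thy1 (0.11) in clone 1. The genotype calls of Col1a2 (adjusted p = 0.012) and Cdx2 (0.00355) were lost without WT replicate 1 (0.164 and 0.0833), and that of Col1a2 also without WT replicate 2 (0.0975). The part of these markers in the results below was not tested. In such bulk samples, fewer cells of a type and less RNA per cell cannot be told apart. Clone 1 replicate 1 had the lowest share of ambiguous reads, at 6.96%, against 9.10% in clone 1 replicate 2, 7.62% and 8.49% in clone 2, and 8.39% and 8.73% in WT.

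As a whole the family lay slightly lower in the libraries labelled knockout, and Mrpl23 was higher in each of them. Summed over the 77 genes, the level was 3644 and 4101 CPM in clone 1 and 3828 and 3971 CPM in clone 2, against 4222 and 4280 CPM in WT. Each library labelled knockout was below both WT libraries under TMM scaling. Under plain scaling by library size, tried after the data were seen, the sums were 3792 and 4236 CPM in clone 1 and 3785 and 3903 CPM in clone 2, against 4116 and 4161 CPM in WT, so that clone 1 replicate 2 then lay above WT. The means under TMM were 3886 ± 196 CPM in the libraries labelled knockout (SD, n = 4) and 4251 ± 41.0 CPM in WT (SD, n = 2).

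The median gene of the family was at a log2 ratio to the WT mean of -0.21 and -0.07 in clone 1 and of -0.14 and -0.12 in clone 2, against -0.01 and 0.01 in WT. Over all genes tested this median lay between -0.01 and 0.00 in every library. Below the WT mean were 63 and 48 of the 77 genes in clone 1 and 64 and 57 in clone 2, against 41 and 36 in WT. The replicates of clone 1 disagreed along the family, since 63 of 77 genes were higher in replicate 2 than in replicate 1, at a median log2 difference of 0.17, where all genes tested had a median of -0.01. The corresponding counts were 51 in clone 2 and 41 in WT.

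**Figure D1:**
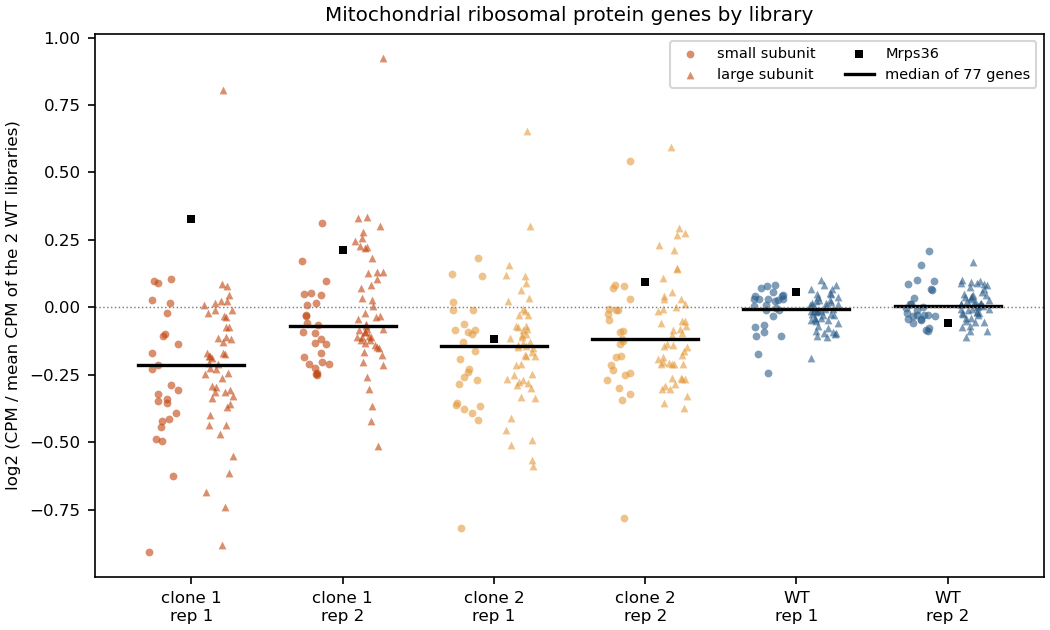
Log2 ratio of each gene's CPM to the mean of the 2 WT libraries (vertical axis) in each of the 6 libraries, with circles for the small subunit, triangles for the large subunit, a square for Mrps36 and a bar for the median of all 77 genes. The medians of the 4 libraries labelled knockout lie between -0.21 and -0.07, and the highest triangle in each of these libraries is Mrpl23.

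Against WT, the log2 fold change of the libraries labelled knockout had a median of -0.12 over the 77 genes and of 0.00 over all genes tested. It was below 0 in 61 genes, or 79.2%, where 49.4% of all genes tested were below 0. After Benjamini-Hochberg adjustment at 0.05 over all genes, 1 member was called higher, Mrpl23, where 4.25% of all genes tested were called higher, and 1 was called lower, Mrpl22, where 2.11% were. The called share of the family was thus below or near the background in both directions. All 4 libraries labelled knockout lay below both WT libraries in 25 of 77 genes (32.5%), where 16.7% of all genes tested did, and above both in 3 genes (3.9%), where 18.3% did. These 3 were Mrpl23, Mrpl33 and Mrpl9.

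Taken clone by clone, 8 of 77 genes were called lower and 1 higher in clone 1 against WT, where the background over all genes tested was 9.53% lower and 12.4% higher. In clone 2 against WT, the calls were 7 lower and 1 higher, where the background was 7.81% and 10.1%. Mrpl22, Mrpl17 and Mrps16 were called lower in both contrasts, and Mrpl23 was the gene called higher in both. These contrasts share the WT libraries. Median log2 fold changes were -0.12 in clone 1 and -0.13 in clone 2, with 64 and 61 genes below 0, where 50.1% and 50.2% of all genes tested were below 0. Both libraries of clone 1 lay below both of WT in 36 genes (46.8%), where 28.8% of all genes tested did, and above in 6 (7.79%), where 30.6% did. For clone 2 these were 43 genes (55.8%), where 30.0% did, and 6 genes (7.79%), where 31.3% did.

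The clone 1 count depended on which of its libraries was used. Without clone 1 replicate 2, 30 of the 77 genes were called lower, at a median of -0.21, where 13.7% of all genes were, and without clone 1 replicate 1 the count was 5, at a median of -0.07, where 10.6% were. It was 4 without clone 2 replicate 1 and 5 without clone 2 replicate 2, where 7.5% and 7.75% of all genes were, and 1 without WT replicate 1 and 0 without WT replicate 2, where 4.07% and 4.11% were. The clone 2 count was 1 without clone 2 replicate 1 and 3 without clone 2 replicate 2, where 3.51% and 3.98% of all genes were, and 0 without WT replicate 1 and 1 without WT replicate 2, where 3.26% and 3.48% were. It was 19 without clone 1 replicate 1 and also without clone 1 replicate 2, where 12.2% and 12.3% of all genes were. The part of the ambiguous reads or of the replicate difference in these counts was not tested.

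Between clone 2 and clone 1, edgeR called 0 of the 77 genes in either direction, where calls over all genes tested were 6.62% higher and 7.71% lower. At an unadjusted p under 0.05 there were 11, where 4094 of 14946 genes tested (27.4%) had such a p, and DESeq2 also called 0. The median log2 difference was 0.00, and 38 genes were below 0, where 49.9% of all genes tested were. Both libraries of clone 2 lay below both of clone 1 in 15 genes (19.5%), where 27.7% of all genes tested did, and above in 11 (14.3%), where 26.9% did. The log2 difference of single genes lay between -0.54 (Mrps6, adjusted p = 0.0609) and 0.56 (Mrps18c). Without clone 1 replicate 1, 7 genes were called lower, where 8.26% of all genes were. Without clone 1 replicate 2, 13 were called higher and 1 lower, where 11.1% and 9.04% of all genes were.

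**Figure D2:**
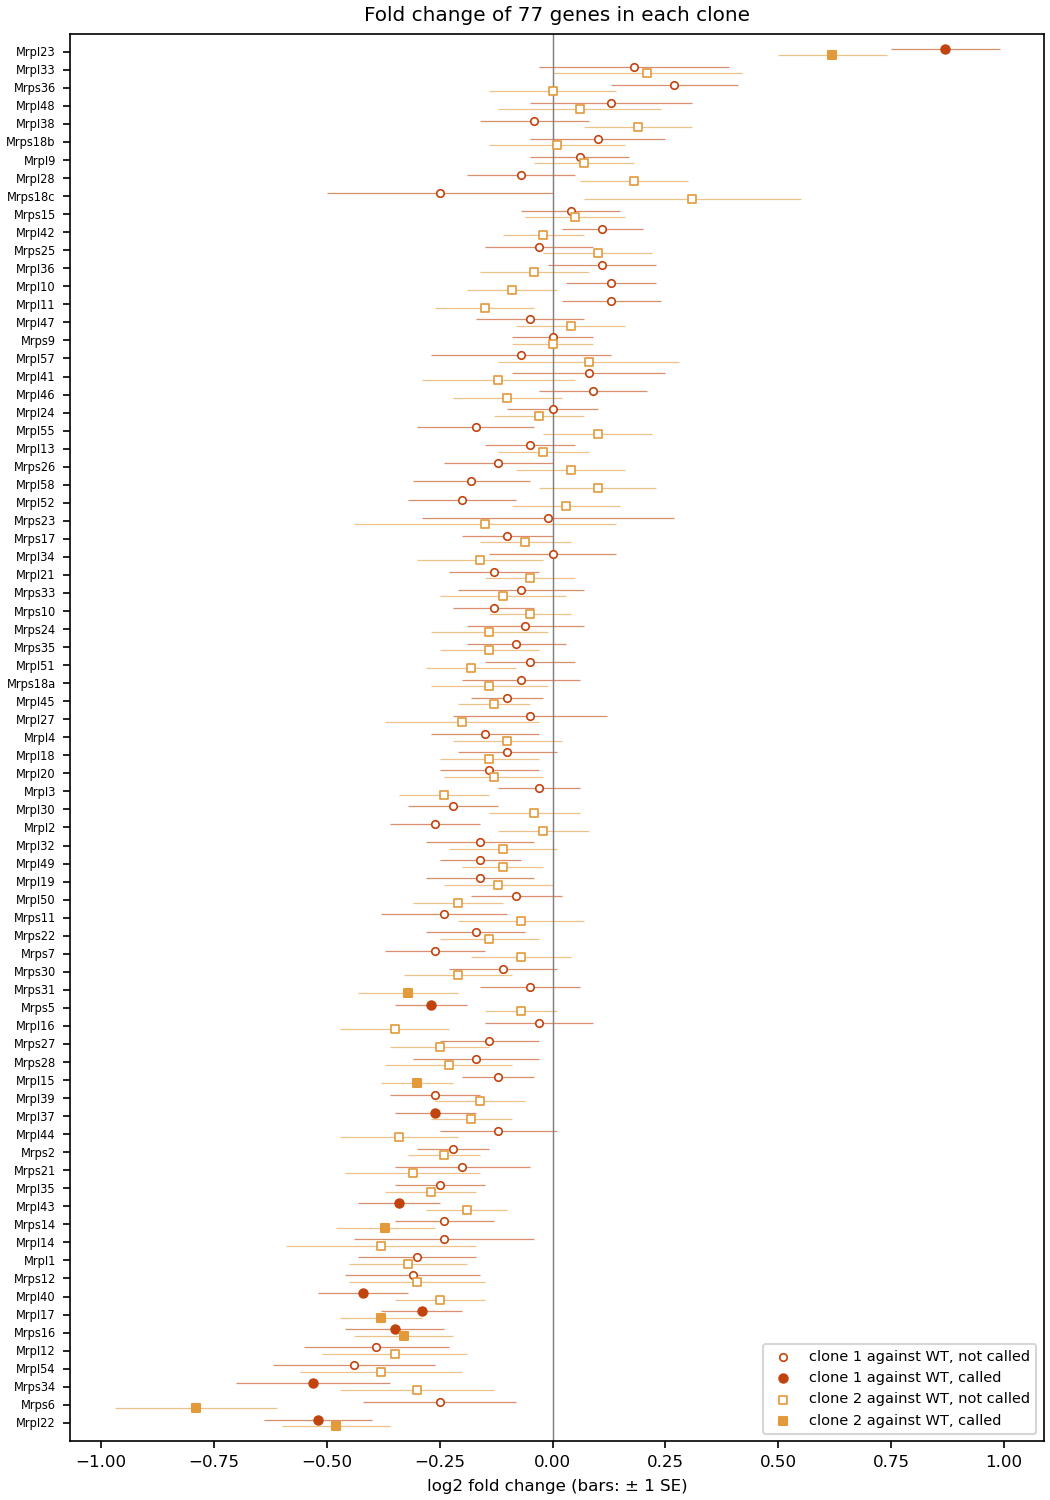
Log2 fold change (horizontal axis, bars are ± 1 SE) of each of the 77 genes in clone 1 (circles) and clone 2 (squares) against WT, ordered by the fold change of all libraries labelled knockout, with filled symbols for adjusted p under 0.05. Most symbols lie left of 0, at medians of -0.12 and -0.13, and Mrpl23 stands alone on the right at 0.87 and 0.62.

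The large subunit forms peptide bonds and holds the tunnel through which the new chain leaves. Mrpl23 and Mrpl22 belong to the ring of proteins around that exit, with Mrpl24, Mrpl17, Mrpl47 and Mrpl45, the last of which tethers the ribosome to the inner membrane. Their promoters are shown because the genes called across genotypes, Mrpl23 higher and Mrpl22 lower, are both in this ring, and Mrpl17 is added as a further ring gene lower in both clones. The sequences are the 250 bases before the gene start annotated in RefSeq on GRCm38.p6, with matches to searched motifs in capitals: Mrpl23 at chr7:142532782-142533031 on the plus strand, Mrpl22 at chr11:58171414-58171663 on the plus strand and Mrpl17 at chr7:105811088-105811337 on the minus strand.
Mrpl23: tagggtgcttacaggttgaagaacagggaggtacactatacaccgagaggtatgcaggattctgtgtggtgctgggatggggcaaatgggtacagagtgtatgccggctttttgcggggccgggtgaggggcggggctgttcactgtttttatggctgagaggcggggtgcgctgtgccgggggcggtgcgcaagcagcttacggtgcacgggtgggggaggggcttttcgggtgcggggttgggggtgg
Mrpl22: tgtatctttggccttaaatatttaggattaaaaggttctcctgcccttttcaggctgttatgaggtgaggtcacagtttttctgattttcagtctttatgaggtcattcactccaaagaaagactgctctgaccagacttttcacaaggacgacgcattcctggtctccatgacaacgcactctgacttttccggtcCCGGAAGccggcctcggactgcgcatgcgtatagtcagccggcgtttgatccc
Mrpl17: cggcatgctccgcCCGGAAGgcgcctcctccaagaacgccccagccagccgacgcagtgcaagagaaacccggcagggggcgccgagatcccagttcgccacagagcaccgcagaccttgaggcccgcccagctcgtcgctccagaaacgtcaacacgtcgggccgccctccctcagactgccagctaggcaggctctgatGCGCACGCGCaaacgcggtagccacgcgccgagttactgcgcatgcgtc
The motifs were GCGCA and GCGC 1 base apart, bound by NRF1, CCGGAAG, bound by ETS factors such as GABP, and AAGATGG, bound by YY1, all factors known for driving nuclear genes of mitochondria. Both strands were searched over 300 bases, the 250 shown and the 50 that follow, and no matches of different motifs overlapped in the family.

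The Mrpl23 window held no match, but it lies wholly inside Mrpl23 as GENCODE annotates the gene, from 142532686, so the bases before that start were not searched. The window of Mrpl22 held 1 ETS match that begins at position -53 from the RefSeq start, and that of Mrpl17 held 1 NRF1 match at position -49 and 1 ETS match at position -237. Of the 77 genes, 68 had an entry, and a gene with several entries counted once if any of them matched. The NRF1 letters were in 13 of these (19.1%), where 11.2% of the 10456 tested genes with an entry had them. Of all 32851 promoters, counted singly and not by gene, 4.6% had them, so that share is not on the same basis. The ETS letters were in 25 genes (36.8%), against 8.86% of all promoters and 19.6% of the tested genes with an entry. The YY1 letters were in 13 (19.1%), against 6.34% and 8.37%. The log2 fold change against WT had a median of -0.13 in genes with the NRF1 letters and -0.11 in those without, of -0.11 with the ETS letters and -0.13 without, and of -0.13 with the YY1 letters and -0.11 without. A match describes letters and is not a measured site.

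Mrpl23 (ENSMUSG00000037772.13, chr7:142532686-142540747, plus strand, GRCm38) was the gene of the family called higher. It had 33.6 and 36.4 CPM in clone 1 and 30.2 and 29.0 CPM in clone 2, against 19.5 and 18.9 CPM in WT. The groups did not overlap, and clone 1 lay above clone 2. The rise was 1.68-fold in the libraries labelled knockout, a log2 fold change of 0.75 ± 0.13 (SE, adjusted p = 0.0103). It was 0.87 ± 0.12 in clone 1 (adjusted p = 7.1e-05) and 0.62 ± 0.12 in clone 2 (adjusted p = 0.00178), and the clone difference of -0.24 ± 0.12 missed the threshold (adjusted p = 0.192). Both clone calls held under all 12 alternatives, while the genotype call was lost without WT replicate 1 (adjusted p = 0.148) or WT replicate 2 (0.152).

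Mrpl23 lies next to the imprinted gene H19 on chromosome 7, and its neighbours were looked at for that reason after the values were seen. H19, a noncoding RNA expressed from the maternal copy, had 1.74 and 1.53 CPM in clone 1 and 2.36 and 2.21 CPM in clone 2, against 0.309 and 0.591 CPM in WT. The groups did not overlap, although WT had only 4 and 8 counts. Its log2 fold change was 2.1 ± 0.48 (adjusted p = 0.0327), and the call was lost without WT replicate 1 (0.307) or 2 (0.152), without clone 2 replicate 1 (0.0675) or 2 (0.0613), and with the replicate block (0.0651).

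Further along, Ascl2, a transcription factor of the trophoblast, rose in clone 1, at 15.9 and 17.4 CPM, against 5.01 and 5.39 CPM in WT (log2 fold change 1.68 ± 0.19, adjusted p = 7.25e-06). In clone 2 it had 5.74 and 6.72 CPM (0.26 ± 0.21, adjusted p = 0.429). On the other side, Ctsd, a lysosomal protease, was at -0.03 ± 0.10 in clone 1 and 0.02 ± 0.10 in clone 2. The 10 nearest tested genes had a median log2 fold change of 0.29 in the libraries labelled knockout, 0.56 in clone 1 and 0.14 in clone 2.

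**Figure D3:**
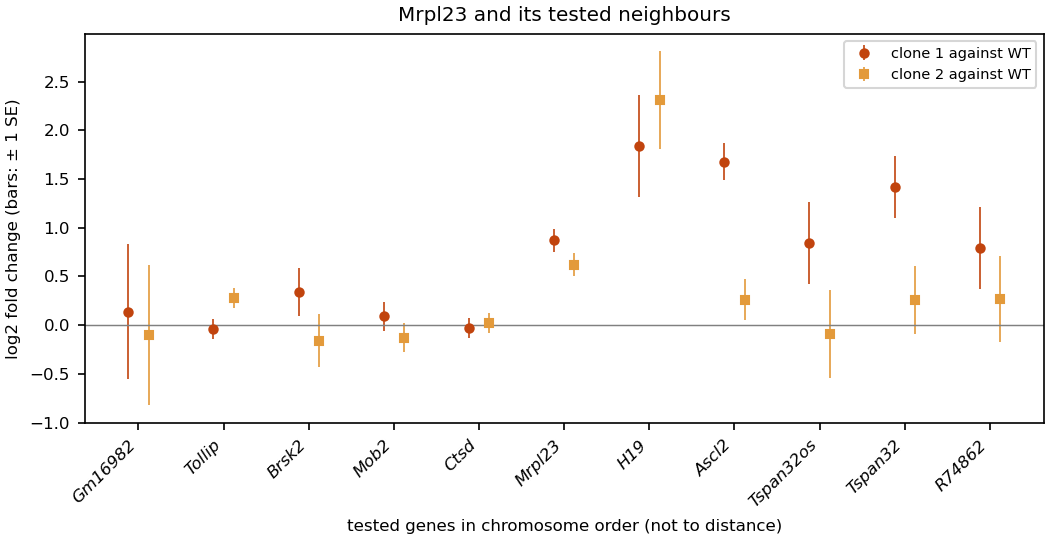
Log2 fold change (vertical axis, bars are ± 1 SE) in clone 1 and clone 2 against WT of Mrpl23 and the 5 nearest tested genes on each side, in chromosome order and not to distance. Mrpl23 and H19 are above 0 in both clones, Ascl2 and Tspan32 are called in clone 1 and not in clone 2, and Ctsd is near 0.

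Mrpl22 (ENSMUSG00000020514.8, chr11:58171661-58179565, plus strand) was the gene called lower across genotypes. It had 25.1 and 28.7 CPM in clone 1 and 25.6 and 29.7 CPM in clone 2, against 37.8 and 39.1 CPM in WT. Clones 1 and 2 overlapped each other and lay wholly below WT. The log2 fold change was -0.50 ± 0.11 (0.709-fold, adjusted p = 0.0303), with -0.52 ± 0.12 in clone 1 (adjusted p = 0.00615) and -0.48 ± 0.12 in clone 2 (adjusted p = 0.0127). The genotype call was lost without clone 2 replicate 1 (0.063), WT replicate 1 (0.232) or WT replicate 2 (0.268), the clone 1 call without WT replicate 2 (0.0654), and the clone 2 call without clone 2 replicate 1 (0.181), WT replicate 1 (0.0751) or WT replicate 2 (0.106). Its 10 nearest tested genes had a median log2 fold change of -0.05.

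Mrpl17, the relative of bacterial L17, was at 132 and 154 CPM in clone 1 and at 127 and 142 CPM in clone 2, against 171 and 177 CPM in WT. Both clones lay below WT. It fell by 0.29 on the log2 scale in clone 1 (adjusted p = 0.0334) and by 0.38 in clone 2 (adjusted p = 0.00847), with SEs of 0.09. The clone 1 call was lost without clone 1 replicate 1 (0.115), clone 2 replicate 1 (0.0553), clone 2 replicate 2 (0.0519), WT replicate 1 (0.122) or WT replicate 2 (0.197), and the clone 2 call without clone 2 replicate 1 (0.167), WT replicate 1 (0.0628) or WT replicate 2 (0.101). The ring genes were not uniform, since Mrpl24 was at -0.02 ± 0.09, Mrpl47 at 0.00 ± 0.11 and Mrpl45 at -0.12 ± 0.08 in the libraries labelled knockout, none of them called.

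The remaining calls in the large subunit came from 1 clone each. Mrpl40, a protein specific to mitochondria, had 43.1 and 46.3 CPM in clone 1 and 48.9 and 51.5 CPM in clone 2, against 60.1 and 59.2 CPM in WT. All libraries labelled knockout were below WT, and the fall of 0.42 ± 0.10 (log2, SE) in clone 1 was called (adjusted p = 0.00739) and that in clone 2, at -0.25 ± 0.10, was not (0.102). The clone 1 call was lost without WT replicate 1 (0.0684) or 2 (0.0548).

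Mrpl43, also specific to mitochondria, had 75.3 and 85.2 CPM in clone 1 and 85.8 and 92.4 CPM in clone 2, against 99.8 and 104 CPM in WT. Every library labelled knockout was below WT, at -0.34 ± 0.09 in clone 1 (adjusted p = 0.014) and -0.19 ± 0.09 in clone 2 (0.169). The clone 1 call was lost without WT replicate 1 (0.0691) or 2 (0.122), and 33.4% of the exon bases of Mrpl43 overlap those of the antisense gene Twnk, whose reads cannot be told apart without strand.

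Mrpl37, another protein added in mitochondria, had 101 and 109 CPM in clone 1 and 112 and 110 CPM in clone 2, against 122 and 129 CPM in WT. The groups did not overlap, and the log2 fold change was -0.26 ± 0.09 in clone 1 (adjusted p = 0.0385) and -0.18 ± 0.09 in clone 2 (0.161). The clone 1 call was lost without any one library other than clone 1 replicate 2, at an adjusted p of 0.0794 to 0.232, and in DESeq2 (0.0626). Mrpl15, the relative of bacterial L15, had 135 and 145 CPM in clone 1 and 126 and 121 CPM in clone 2, against 156 and 148 CPM in WT. It was lowest in clone 2, at -0.30 ± 0.08 (adjusted p = 0.0195), with -0.12 ± 0.08 in clone 1 (0.344), and the clone 2 call was lost without either clone 2 library (0.111 and 0.21) or either WT library (0.179 and 0.0788).

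The small subunit binds messenger RNA and reads its codons. Mrps16, which sits in the body of the subunit, was called lower in both clones. It had 45.7 and 55.7 CPM in clone 1 and 50.1 and 52.4 CPM in clone 2, against 63.9 and 64.9 CPM in WT. Every library labelled knockout was below WT, at -0.35 ± 0.11 in clone 1 (adjusted p = 0.0313) and -0.33 ± 0.11 in clone 2 (0.0463). The clone 1 call was lost without clone 1 replicate 1 (0.171), clone 2 replicate 1 (0.0535), WT replicate 1 (0.133) or WT replicate 2 (0.16). The clone 2 call was lost without clone 2 replicate 1 (0.265) or 2 (0.156) and without WT replicate 1 (0.186) or 2 (0.208), and DESeq2 called neither (0.0527 in clone 1 and 0.0816 in clone 2).

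In clone 1, Mrps5, the relative of bacterial S5, had 116 and 124 CPM, with 144 and 132 CPM in clone 2, against 146 and 144 CPM in WT. Both clones lay below WT, clone 2 replicate 1 by less than the rounding shows, with log2 fold changes of -0.27 ± 0.08 (adjusted p = 0.0272) and -0.07 ± 0.08 (0.596). The clone 1 call was lost without any one library other than clone 1 replicate 2, at an adjusted p of 0.0511 to 0.149. Mrps34, a protein of the small subunit specific to mitochondria, had 13.7 and 21.7 CPM in clone 1 and 19.8 and 21.9 CPM in clone 2, against 26.2 and 25.2 CPM in WT. Its fall of 0.53 ± 0.17 in clone 1 (adjusted p = 0.0325) rested on replicate 1, without which it was not called (0.273), nor was it without WT replicate 1 (0.171) or 2 (0.127) or in DESeq2 (0.0576). Other genes share 77.8% of the exon bases of Mrps34 on either strand, so its counts are uncertain.

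In clone 2, Mrps6, the relative of bacterial S6, had the largest fall of the family. It had 9.83 and 11 CPM in clone 1 and 7.09 and 7.28 CPM in clone 2, against 13 and 12 CPM in WT. The 3 groups did not overlap, and the log2 fold change was -0.25 ± 0.17 in clone 1 (adjusted p = 0.318) and -0.79 ± 0.18 in clone 2 (0.00537). The clone 2 call was lost without WT replicate 1 (0.0596), and 19.9% of its exon bases lie in other genes.

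Mrps14, the relative of bacterial S14, had 53.8 and 62.6 CPM in clone 1 and 51.5 and 55.0 CPM in clone 2, against 72.3 and 65.3 CPM in WT. All libraries labelled knockout were below WT, with -0.24 ± 0.11 in clone 1 (adjusted p = 0.116) and -0.37 ± 0.11 in clone 2 (0.024), a call lost without either clone 2 library (0.207 and 0.0876) or either WT library (0.233 and 0.0655). Mrps31, specific to mitochondria, had 58.5 and 53.3 CPM in clone 1 and 47.4 and 45.5 CPM in clone 2, against 61.2 and 54.4 CPM in WT. Clone 1 overlapped WT and clone 2 did not, and the fall of 0.32 ± 0.11 in clone 2 was just called (adjusted p = 0.0495) and was lost without either clone 2 library (0.17 and 0.276), without either WT library (0.353 and 0.084) and in DESeq2 (0.0922).

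**Figure D4:**
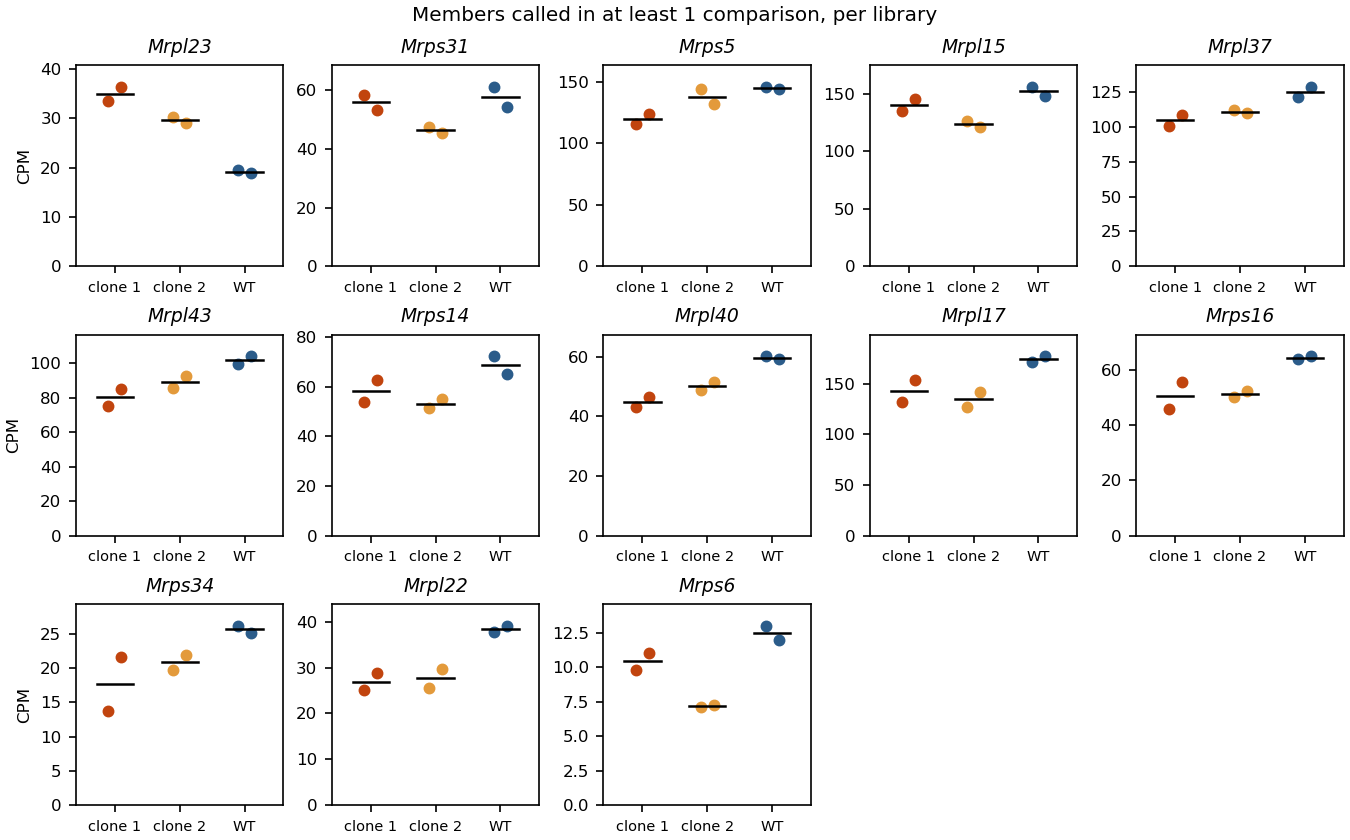
CPM (vertical axes, from 0) of the 13 genes called in at least 1 comparison, with 1 point per library and a bar for the mean of the 2 libraries of clone 1, clone 2 and WT. Mrpl23 is above WT in both clones, and in each of the other 12 genes the highest library is a WT library.

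By subunit and by origin of the protein, medians lay close together, with no test of a difference. Of 26 genes of the small subunit, 3 were called lower in clone 1 and 4 in clone 2. Of 50 of the large subunit these were 5 and 3, with 1 called higher in each clone. Over all genes tested, 9.53% and 7.81% were called lower and 12.4% and 10.1% higher in clones 1 and 2. The median log2 fold change in the libraries labelled knockout was -0.16 in the small and -0.12 in the large subunit. Summed levels of the small subunit were 1094 and 1214 CPM in clone 1 and 1158 and 1185 CPM in clone 2, against 1286 and 1299 CPM in WT, and those of the large subunit 2527 and 2865 CPM and 2653 and 2765 CPM, against 2916 and 2963 CPM. The 46 genes with a bacterial relative had a median of -0.13 and the 30 specific to mitochondria one of -0.11. Mrps36 counts in neither, because its protein is known as a subunit of the oxoglutarate dehydrogenase complex. It had 23.4 and 21.6 CPM in clone 1 and 17.2 and 19.9 CPM in clone 2, against 19.4 and 17.9 CPM in WT, with a log2 fold change of 0.14 ± 0.15 (adjusted p = 0.634).

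Levels spanned a 118-fold range between genes. Per kilobase of merged exons and averaged over groups, the level ranged from 0.932 CPM per kb for Mrpl33 to 110 CPM per kb for Mrpl2, which encodes a core protein near the peptidyl transferase centre. The median was 17 CPM per kb, with quartiles of 9.58 and 31.7. After Mrpl2, the highest were Mrpl34 at 77.9, Mrpl28 at 71.6, Mrpl43 at 59.5 and Mrpl49 at 46.4 CPM per kb, and the lowest after Mrpl33 were Mrpl48 at 1.87, Mrps23 at 2.82, Mrps35 at 4.36 and Mrps30 at 4.94 CPM per kb. Merged exons count bases of rare long transcripts too, and with the length of the longest transcript 6 of these 10 genes stayed among the 5 highest or 5 lowest. Mrpl23 was 69th of 77 by this level, at 5.73 CPM per kb.

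**Figure D5:**
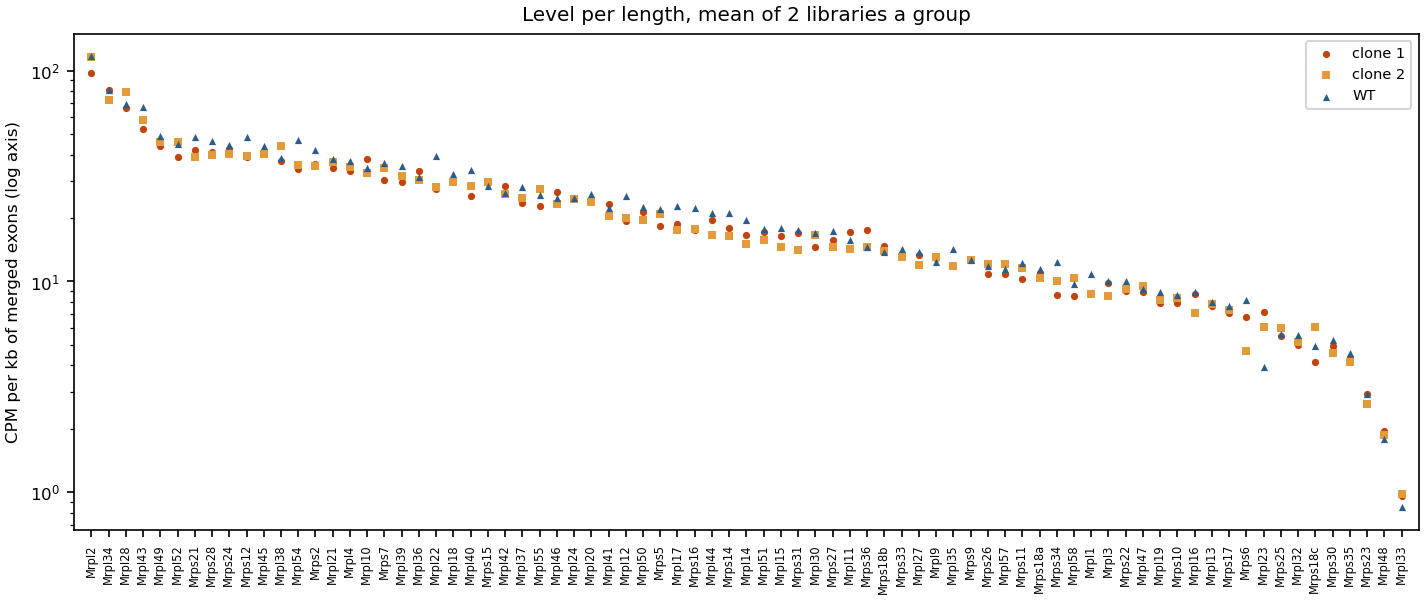
Level in CPM per kb of merged exons (vertical axis, log scale) of the 77 genes, from the highest to the lowest, as the mean of the 2 libraries of clone 1, clone 2 and WT. Levels run from 110 for Mrpl2 to 0.932 for Mrpl33, and the symbols of the 3 groups lie close together for most genes.

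The protein genes of the cytosolic ribosome are the counterpart of this family. The mitochondrial family had median log2 fold changes of -0.12 in clone 1 and -0.13 in clone 2, and the 81 tested cytosolic ribosomal protein genes had -0.26 and -0.09. Of the mitochondrial family 8 and 7 genes were called lower in clones 1 and 2, and of the cytosolic one 26 and 2. Over all genes tested, 9.53% and 7.81% were called lower. Called higher were 1 gene of the mitochondrial family in each clone and 1 cytosolic gene, in clone 2. Over all genes tested, 12.4% and 10.1% were called higher. Between clone 2 and clone 1 the mitochondrial family had 0 calls and a median of 0.00. Of the 81 cytosolic genes, 10 were called higher and 1 lower in clone 2, at a median of 0.16. Over all genes tested, 6.62% were called higher and 7.71% lower. Summed over the 82 cytosolic genes with 10 or more counts, levels were 60345 and 72039 CPM in clone 1 and 71163 and 78933 CPM in clone 2. In WT they were 76955 and 80099 CPM. Clone 1 replicate 1 was thus the lowest library, and its part in these counts was not tested. The difference between the families was not tested.

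For the lists that follow, the background over all genes tested is that given above, 9.53% lower and 12.4% higher in clone 1, 7.81% and 10.1% in clone 2, and 2.11% and 4.25% across genotypes. Of 5 further ribosomal proteins under other symbols, Chchd1, a protein of the small subunit, fell in clone 2. It had 39.3 and 49.6 CPM in clone 1 and 17.9 and 18.3 CPM in clone 2, against 42.4 and 33.5 CPM in WT. Clone 2 lay apart from the other groups, at -1.06 ± 0.15 against WT (adjusted p = 7e-05), a call kept under all 12 alternatives.

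Among 23 tested assembly factors, clone 1 had 1 call, which was lower, and clone 2 had 4, of which 3 were lower. Tfb1m, which methylates the RNA of the small subunit, was at 11.1 and 11.2 CPM in clone 2, against 17.4 and 16.4 CPM in WT, a log2 fold change of -0.61 ± 0.16 (adjusted p = 0.0123). The other called factors were Trub2 at -0.28 in clone 1, and Rpusd4 at -0.42, Fastkd2 at -0.37 and Nsun4 at 0.36 in clone 2. Each of these 5 calls was lost without either WT library and without either library of its clone, apart from Trub2, which was lost without clone 1 replicate 1 (0.0736) and kept without clone 1 replicate 2. Their adjusted p-values over these fits reached 0.102 for Tfb1m, 0.257 for Trub2, 0.12 for Rpusd4, 0.261 for Fastkd2 and 0.216 for Nsun4, and DESeq2 did not call Trub2 (0.078), Fastkd2 (0.0532) or Nsun4 (0.113).

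Among 14 tested translation factors, 1 was called lower in each clone, the insertase gene Oxa1l in clone 1 at -0.28 ± 0.09 (adjusted p = 0.0276) and the release factor gene Mtrf1l in clone 2 at -0.56 ± 0.18 (0.0401). Both calls were lost without either WT library, at 0.0705 and 0.22 for Oxa1l and 0.154 and 0.148 for Mtrf1l, and without either clone 2 library, at 0.0583 and 0.0597 for Oxa1l and 0.214 and 0.13 for Mtrf1l, which DESeq2 did not call either (0.122).

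Of 9 genes for replication and transcription of mitochondrial DNA, 1 was called higher and 1 lower across genotypes. Ssbp1, which coats single-stranded mitochondrial DNA, had 61.9 and 65.1 CPM in clone 1 and 63.9 and 66.2 CPM in clone 2, against 91.7 and 81.2 CPM in WT, a log2 fold change of -0.43 ± 0.09 (adjusted p = 0.0211). Polg, the polymerase that copies this DNA, had 132 and 133 CPM in clone 1 and 161 and 155 CPM in clone 2, against 103 and 111 CPM in WT, at 0.44 ± 0.11 (0.0402). In both genes the libraries labelled knockout did not overlap WT. The Ssbp1 call was lost without WT replicate 1 (0.307) or 2 (0.112), and the Polg call without these (0.364 and 0.231), without clone 2 replicate 1 (0.0773) or 2 (0.0707) and with the replicate block (0.0736). By clone, Polg was called higher in clone 1 (0.31 ± 0.08, adjusted p = 0.0127), a call lost without either WT library. In clone 2 it was called at 0.56 ± 0.08 (0.000136), a call kept under all 12 alternatives. Polrmt, the mitochondrial RNA polymerase, was called lower in clone 1, at -0.29 ± 0.10 (adjusted p = 0.0489). The Polrmt call was lost without any one library other than clone 1 replicate 2 and in DESeq2 (0.0819). It was also lost in a fit of only the 4 libraries compared (0.0871) and with a filter of 10 or more counts in all (0.0506).

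The RNAs that this ribosome translates come from mitochondrial DNA, and of 12 tested, 2 were called lower in clone 1, where 9.53% of all genes were, and 3 in clone 2, where 7.81% were. mt-Co2, a subunit of cytochrome oxidase, had 137 and 151 CPM in clone 1 and 112 and 128 CPM in clone 2, against 177 and 173 CPM in WT. Both clones lay below WT, at -0.28 ± 0.09 in clone 1 (adjusted p = 0.0314) and -0.55 ± 0.09 in clone 2 (0.00038), and the clone 1 call was lost without any one library other than clone 1 replicate 2, at 0.0508 to 0.177. mt-Nd1, of complex I, was called in clone 1 at -0.39 ± 0.07 (adjusted p = 0.000764) and in clone 2 at -0.21 ± 0.07 (0.0472), the second call being lost without any one clone 2 or WT library (0.0527 to 0.375) and in DESeq2 (0.0713). mt-Atp6, of the ATP synthase, was called in clone 2 at -0.45 ± 0.11 (0.00829), a call lost without clone 2 replicate 1 (0.098) or 2 (0.0549) or WT replicate 1 (0.117).

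The ribosome's own RNAs were measured after a depletion of ribosomal RNA, so their levels describe what that step left. mt-Rnr1, of the small subunit, had 304 and 288 CPM in clone 1 and 245 and 245 CPM in clone 2, against 336 and 280 CPM in WT, and was called lower in clone 2 at -0.33 ± 0.09 (adjusted p = 0.0153), a call lost without clone 2 replicate 1 (0.114) or 2 (0.112) or WT replicate 1 (0.289). mt-Rnr2, of the large subunit, had 543 and 452 CPM in clone 1 and 479 and 471 CPM in clone 2, against 448 and 417 CPM in WT. Every library labelled knockout was above WT, and neither clone was called, at a log2 fold change of 0.20 ± 0.09 in clone 1 (adjusted p = 0.11) and 0.14 ± 0.09 in clone 2 (0.32). Of 8 tested factors that drive genes of this kind, Myc was called, at 4.92 and 6.83 CPM in clone 1 and 8.11 and 7.99 CPM in clone 2, against 15.9 and 18 CPM in WT. The groups did not overlap, and the log2 fold change was -1.28 ± 0.21 (adjusted p = 0.00885), a call lost without WT replicate 1 (0.101) or 2 (0.138). Myc was also called lower in clone 1 (-1.53 ± 0.19, adjusted p = 2.71e-05) and in clone 2 (-1.08 ± 0.19, 0.000649). Both clone calls were kept under all 12 alternatives. The other 7 factors, among them Nrf1, Gabpa and Yy1, were not called in any comparison.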

How the data were processed

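RNA sequencing of 6 libraries of E14 embryonic stem cells was used, 2 each from Bcat1 knockout clone 1, clone 2 and WT. Per the labels' protocols, ribosomal RNA was removed before library construction. The deposited files hold raw counts per gene. Among the names in the submitters' processing notes are the build mm10 and, with no stated role, DESeq2 1.18.1, HTSeq 0.9.1 and HISAT2 2.1.0. For the annotation and the strand setting, no source used here gives a value. Overlapping and antisense genes can therefore share reads. Each table held 52535 gene entries and 5 summary entries that were not tested or counted in library sizes, namely, as shares of all reads, 4.14% to 5.35% without a feature, 6.96% to 9.10% ambiguous, 6.00% to 7.30% of low quality, 2.44% to 3.09% unaligned and 15.6% to 16.6% with several alignments.

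Counts were tested with edgeR 4.0.16 in R 4.3.3 (filterByExpr on groups, TMM, quasi-likelihood F test, two-sided, Benjamini-Hochberg adjustment over 14946 genes at 0.05). Genotypes were compared in a fit of 4 knockout-labelled against 2 WT libraries, and the clones in a fit of 3 groups that shares 1 spread. Coordinates and exon lengths are from GENCODE M21 on GRCm38, and promoters from RefSeq on GRCm38.p6. The fits were tested on simulated counts. Each library was left out in turn, and DESeq2 1.42.0, RLE size factors, other filters, a replicate block and other designs were tried.

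The family, its lists and all choices were made with earlier results of these data known. Named genes were members called in any of 4 comparisons, the 5 highest and 5 lowest levels per length, the gene left out, and up to 4 called genes of each list and comparison. The neighbours of Mrpl23, Mrpl9, Mrpl33, Mrps18c, Mrps36, Mrpl24, Mrpl45 and Mrpl47 were named after their values were seen. SDs over 2 libraries are rough. Figures were drawn with matplotlib 3.10.9.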

Additional observations from a re-analysis of the deposited data

Results flagged for a closer look

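The clones differed from each other, by the test of clone 2 against clone 1, in 6 genes of the lists that build, serve or are read by the mitochondrial ribosome. These lists held 5, 23, 14, 9, 12, 2 and 8 tested genes. Over all genes tested, 6.62% were called higher and 7.71% lower in this test. Summed over these lists, the called share was below that background in each direction. The 3 marker lists were not included. In them such calls numbered 1 of 8 tested stem cell, 2 of 4 tested fibroblast and 4 of 6 tested lineage markers. The log2 difference, clone 2 minus clone 1, was -1.29 in Chchd1, -0.72 in Tfb1m, 0.36 in Trub2, 0.25 in Polg, -0.34 in mt-Atp6 and -0.27 in mt-Rnr1. The calls of Chchd1 and Tfb1m held in all 12 alternatives, whose adjusted p-values by edgeR or DESeq2 reached 0.000401 and 0.047. The Trub2 call was lost without clone 2 replicate 1 (0.113) or 2 (0.183). The calls of Polg, mt-Atp6 and mt-Rnr1 lay near the threshold in edgeR (adjusted p of 0.0482, 0.0482 and 0.0495). They were lost in DESeq2 (0.0833, 0.101 and 0.0734) and without any one library of clone 2 or WT. The mt-Atp6 call was also lost without clone 1 replicate 2. Of the 12 alternatives, the 3 calls were lost in 8, 9 and 8. In 25 groups of 4 libraries checked, no library lay far from the others by Dixon's criterion. Such a group joins 2 libraries from each of 2 clones. Where the clones differ, the criterion can hardly flag a library, so this result does not show that the libraries agree.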

How the results depend on the processing

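No called gene changed sign under the alternatives run. Beyond the losses given with the genes, further calls were lost, with the adjusted p in brackets. A fit of only the 4 libraries compared lost the clone 1 calls of Mrpl17 (0.0583), Mrpl37 (0.0809), Mrps16 (0.0572) and Mrps5 (0.0577). It also lost those of Trub2 (0.0847), Oxa1l (0.0588) and mt-Co2 (0.0526). A filter of 10 or more counts in all lost the clone 2 calls of Mrps16 (0.0517), Mrps31 (0.055) and Nsun4 (0.0529). No filter beyond 1 count lost the clone 2 calls of Mrps31 (0.0538) and Nsun4 (0.0734) and the clone 1 call of Trub2 (0.053). The median of clone 2 against clone 1, at 0.00, was -0.05 without clone 1 replicate 1 and 0.06 without clone 1 replicate 2. Over the fits that leave out 1 library, the number of members called higher and lower was 0 to 1 and 0 to 2 in the libraries labelled knockout against WT, 1 and 0 to 30 in clone 1 against WT, 1 to 2 and 0 to 19 in clone 2 against WT, and 0 to 13 and 0 to 7 in clone 2 against clone 1. A fit without a WT library leaves 1 in that group, which is assumed to vary like the others. Median log2 fold changes of all members, small and large subunit over these fits were -0.14 to -0.09, -0.18 to -0.11 and -0.14 to -0.08 across genotypes, -0.21 to -0.07, -0.30 to -0.10 and -0.20 to -0.07 in clone 1, -0.14 to -0.12, -0.17 to -0.13 and -0.14 to -0.11 in clone 2, and -0.05 to 0.06, -0.05 to 0.09 and -0.05 to 0.07 between the clones.

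Across genotypes the members called lower were 2 with DESeq2, where 3.24% of all genes were, and 2 with no filter, where 2.48% were. They were 12 when both clone contrasts were averaged, where 9.69% of all genes were. The spread of that fit leaves out the difference between the clones, which the main genotype fit includes. In clone 1 they were 5 with DESeq2 (7.24% of all genes) and 4 in a fit of only the 4 libraries compared (7.8%). In clone 2 they were 21 in such a fit (13.5%). The sample titles give a replicate number and no batch. Same-numbered deviations correlated at 0.125 (clones), 0.0513 (clone 1 and WT) and -0.0125 (clone 2 and WT). Such correlations over all genes cannot show whether same-numbered libraries were handled together. The share of ambiguous reads was lower in replicate 1 than in replicate 2 of clone 1 (6.96% and 9.10%), clone 2 (7.62% and 8.49%) and WT (8.39% and 8.73%). With the replicate block, 17 members were called lower in clone 1 (14.3% of all genes), 15 in clone 2 (11.2%), and 3 higher and 2 lower between the clones (10.2% and 9.9%). By longest transcript, 6 of 10 extreme levels stayed extreme. The causes were not tested. Over 2 libraries a group, SEs of members were 0.08 to 0.29 (log2), which limits small changes.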
